A study of Homo sapiens with 6 samples.

Results

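VCaP is an established line of prostate cancer cells with the TMPRSS2/ERG fusion, in which an androgen-driven promoter switches on the ETS factor ERG. These cells were transfected with 1 of 2 independent siRNAs against SOX9, named SOX9i-A and SOX9i-B in the labels and siRNA A and siRNA B here, or with control siRNA that has no target (NTC), and total RNA was taken 72 h later. The comparison described here sets the 2 siRNA A arrays against the 2 siRNA B arrays, 4 of the 6 arrays in all, over the 12431 tested genes of 19775 with a probe set of their own. The cell line, its fusion, the culture medium and the time were common to all 3 groups, so the siRNA was the only labelled difference, and all cells came from 1 cell line. Each group held 2 arrays, which the design text calls biological duplicates; nothing says how the cultures were separated, and if they were not, p-values measure only technical spread.

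SOX9 is a DNA-binding factor of the SOX family that acts in cartilage, in the prostate epithelium and in progenitor cells of many tissues. An siRNA guides the RNA-induced silencing complex to a matching transcript, which is then cut. It can also lower other transcripts through short matches of its seed and can engage RNA sensors, which is why studies set independent siRNAs against the same target side by side. The sequence of neither siRNA is given in the sources used here, so no seed match was searched.

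Signals are the deposited microarray intensities on a linear scale, and differences are siRNA A minus siRNA B on the log2(signal + 16) scale, which understates the change of dim genes. A gene was called when its limma adjusted p was below 0.05. Arrays of the same replicate number deviated together, so the difference is also given within replicate 1 and within replicate 2, and the fit with the replicate number as a block is given where it changes a call. Over all tested genes the median difference was 0.15 in replicate 1, -0.22 in replicate 2 and -0.03 in the mean. The 2%-trimmed mean signal was 164 and 159 under siRNA A, 143 and 189 under siRNA B and 156 and 175 in the controls, and replicate 2 of siRNA B correlated least with the controls (0.943 and 0.949). Of the markers of VCaP cells, KLK2, a kallikrein of luminal prostate cells, read 15122 to 17513 and ERG 1353 to 2726 over the 6 arrays. The 8 measured markers went both ways between the siRNAs. In both replicates 3 were higher with siRNA A (ERG, TMPRSS2 and HOXB13) and 2 with siRNA B (KRT8 and KRT18). Over all tested genes these shares were 26.3% and 25.2%. KLK3 varied most between replicates, at 2063.8 and 825.3 under siRNA A and 1473.9 and 832.5 under siRNA B.

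SOX9 itself had a higher signal with siRNA A than with siRNA B. It read 1107.9 and 672.6 under siRNA A, 609.3 and 333.5 under siRNA B and 1469.3 and 1126.2 in the controls, in replicates 1 and 2. Both siRNA arrays were below both controls in each group, and the lower siRNA A array lay just above the higher siRNA B array. The difference was 0.91 (SE 0.34, limma adjusted p = 0.428), with 0.85 in replicate 1 and 0.98 in replicate 2. In the fit with the replicate block it passed (limma adjusted p = 0.0411). The other SOX9 probe set gave 860.8 and 585.8 against 569.8 and 292.6, a difference of 0.77. By value the target was thus lower under siRNA B, and what part of the differences below went with the SOX9 level was not tested.

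Between the siRNAs 12 of 12431 genes were called (0.0965%), 6 higher with siRNA A (0.0483%) and 6 higher with siRNA B (0.0483%). Higher with siRNA A were DDC, COL14A1, SLC25A39, SPCS3, RAB8B and SMCO4, and higher with siRNA B were MET, IGFBP5, DIO1, CYP1B1, UGT2B15 and UGT2B28. At an unadjusted p below 0.05 there were 1023 genes (8.23%). With the replicate block 361 genes were called (2.90%), 188 higher with siRNA A (1.51%) and 173 higher with siRNA B (1.39%), and all 12 were among them; the spread in that fit came from the intensity trend alone, so its p-values can be too small. Rescaling the arrays left 0 called genes, whether by quantiles, medians or a common trimmed mean (limma unadjusted p under 0.05 in 1516, 1300 and 1480 genes). Leaving out the second array of siRNA A or of siRNA B also left 0 (limma unadjusted p under 0.05 in 712 and 1163 genes). Leaving out the first array gave 4 called genes for siRNA A and 288 for siRNA B, and leaving out either control gave 55.

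**Figure D1:**
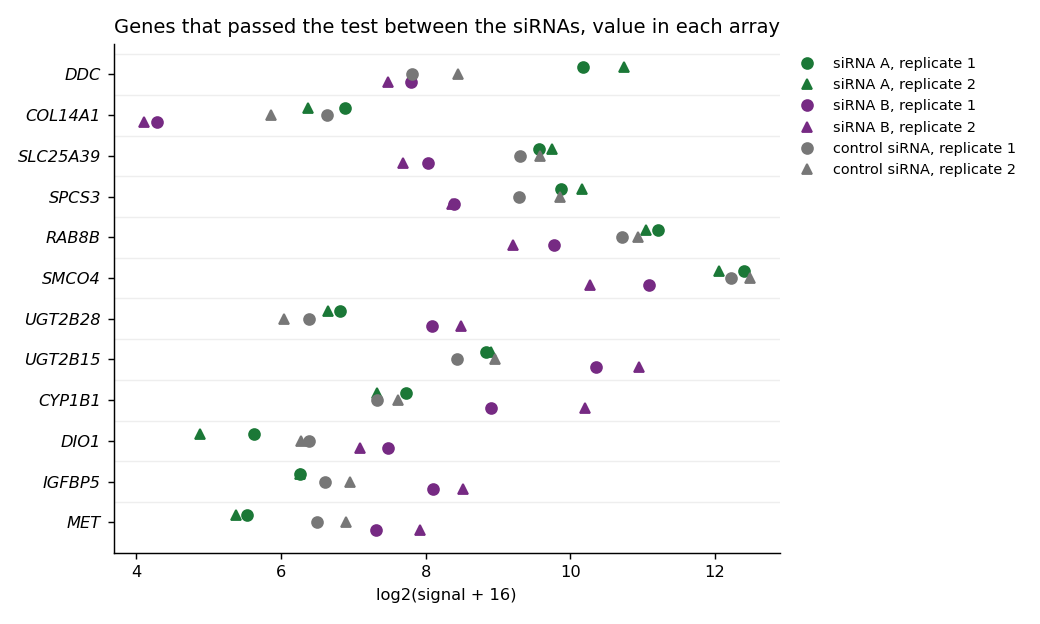
Signal of the 12 called genes on the log2(signal + 16) scale, 1 point per array, with circles for replicate 1 and triangles for replicate 2. In each gene both siRNA A arrays lie on 1 side of both siRNA B arrays; for SMCO4, SLC25A39 and COL14A1 the controls sit with siRNA A, for DDC with siRNA B.

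DDC, an aromatic amino acid decarboxylase at the last step to dopamine and serotonin that also binds the androgen receptor, differed most among the called genes. Its signal was 1139.7 and 1695.2 under siRNA A, 207.5 and 161.9 under siRNA B and 207.6 and 331.4 in the controls. Both siRNA A arrays stood above every other array. Replicate 1 of siRNA B was level with the lower control, and replicate 2 lay below both controls. The difference was 2.82 (SE 0.32, limma adjusted p = 0.00186), or a ratio of mean signals of 7.67. Against control DDC rose by 2.34 with siRNA A (limma adjusted p = 0.0106) and stood at -0.48 with siRNA B (limma adjusted p = 0.633). In those comparisons 2 genes were called for siRNA A (0.0161%) and 23 for siRNA B (0.185%).

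The promoter window of DDC is printed because it is the called gene with the largest difference and because a SOX factor was targeted. The sequence is RefSeq's on GRCh38.p14, 250 bases before to 50 after the start, at chr7:50565356-50565655 on the minus strand, the first window listed for the gene. Capitals mark the match to the SOX core motif, searched as AACAAT or ACAAAG on both strands, which 14.9% of the promoters of tested genes and 24.1% of all promoters in the table hold.
DDC: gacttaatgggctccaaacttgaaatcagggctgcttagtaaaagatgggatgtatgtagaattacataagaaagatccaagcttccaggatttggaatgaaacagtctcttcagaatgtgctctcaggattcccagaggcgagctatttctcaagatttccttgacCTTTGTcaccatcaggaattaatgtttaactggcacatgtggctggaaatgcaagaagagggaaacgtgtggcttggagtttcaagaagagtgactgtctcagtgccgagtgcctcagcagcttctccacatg
The same motif was in 1 of 11 promoters of the named genes higher with siRNA A and in 3 of 10 of those higher with siRNA B. A match is a run of letters and shows no binding.

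COL14A1, a fibril-associated collagen, was near the floor of the array with siRNA B. Its signal was 101.7 and 67.2 under siRNA A, 3.6 and 1.2 under siRNA B and 83.3 and 42.0 in the controls. The control arrays overlapped siRNA A, and siRNA B lay far below both. The difference was 2.43 (SE 0.33, limma adjusted p = 0.00568), on a scale where the offset of 16 exceeds both siRNA B signals.

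SLC25A39, the mitochondrial glutathione carrier, read 742.6 and 842.2 under siRNA A, 246.2 and 190.2 under siRNA B and 614.9 and 748.7 in the controls. As with COL14A1, the siRNA B arrays were the low ones, and siRNA A overlapped the controls. The difference was 1.79 (SE 0.29, limma adjusted p = 0.0248). RAB8B, a small GTPase of vesicle transport, had 2360.6 and 2098.9, 858.4 and 577.4, and 1667.3 and 1936.9 in the same order, with a difference of 1.64 (SE 0.27, limma adjusted p = 0.0327). A further probe set of RAB8B gave 1.57, and another was mixed between the replicates (0.47 and -0.56). SMCO4, which encodes a small membrane protein, fell from 5222 ± 664 in control to 1689 ± 664 with siRNA B and was 4806 ± 815 with siRNA A (SD, n = 2 each; limma adjusted p = 0.0341 between the siRNAs and 0.0123 for siRNA B against control).

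SPCS3, a subunit of the signal peptidase complex, was called from 1 probe set that its other probe sets did not bear out. That probe set, whose type can cross-hybridise, read 922.5 and 1132.9 under siRNA A, 321.3 and 312.9 under siRNA B and 610.1 and 912.6 in the controls, a difference of 1.64 (SE 0.30, limma adjusted p = 0.0464). The others gave 0.26 and -0.27, so the direction of SPCS3 is uncertain.

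MET, the receptor tyrosine kinase for hepatocyte growth factor and a gene that androgens repress, was the called gene that differed most in the other direction. Its signal was 30.0 and 25.5 under siRNA A, 142.9 and 227.4 under siRNA B and 74.2 and 102.8 in the controls. The controls lay between the siRNAs, above both siRNA A arrays and below both siRNA B arrays. The difference was -2.17 (SE 0.30, limma adjusted p = 0.00568), while neither siRNA passed against control (siRNA A at -1.24, siRNA B at 0.93, limma adjusted p = 0.477 and 0.233). A second MET probe set, dim in all arrays at 15.3 to 39.4, gave -0.45. DIO1, the deiodinase that activates thyroid hormone, had the same order, with 33.4 and 13.4, 162.7 and 119.9, and 67.6 and 61.2 (difference -2.03, SE 0.31, limma adjusted p = 0.0169).

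IGFBP5, a secreted protein that binds insulin-like growth factors, was high with siRNA B alone. Its signal was 60.6 and 60.7 under siRNA A, 259.4 and 350.9 under siRNA B and 81.4 and 108.3 in the controls. The difference was -2.05 (SE 0.28, limma adjusted p = 0.00568), and the other probe sets above the filter gave -1.31 and -0.73. CYP1B1, a cytochrome P450 that oxidises oestrogens and carcinogens, read 195.1 and 145.2 under siRNA A, 461.3 and 1161.6 under siRNA B and 144.6 and 179.6 in the controls. The siRNA B arrays of CYP1B1 were far apart from each other, and both exceeded every other array. The difference was -2.02 (SE 0.36, limma adjusted p = 0.0464), with -1.18 in replicate 1 and -2.87 in replicate 2, and 2 further probe sets gave -1.95 and -1.72.

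Past the 12 called genes, a fold rule without a test gave a wider set. In both replicate numbers 79 of 12431 genes were at least 2-fold apart in the same direction (0.636%), 49 higher with siRNA A (0.394%) and 30 higher with siRNA B (0.241%). All 12 called genes were among them, and all 79 passed with the replicate block, as did 2.90% of all tested genes. Of the 79, 76 had no overlap between the siRNA A and siRNA B arrays, as had 30.9% of all tested genes. The rule itself raises both counts, so a pass in the block fit, where given for these genes, adds nothing to their choice. The split of 49 to 30 depended on scaling between arrays: it was 46 to 29 after median centring, 34 to 40 after quantile normalization and 35 to 40 with a common trimmed mean. The replicates were unlike in balance, with 149 genes higher with siRNA A and 55 higher with siRNA B in replicate 1, and 181 and 558 in replicate 2. Only 1 gene passed 2-fold in both replicate numbers in opposite directions.

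**Figure D2:**
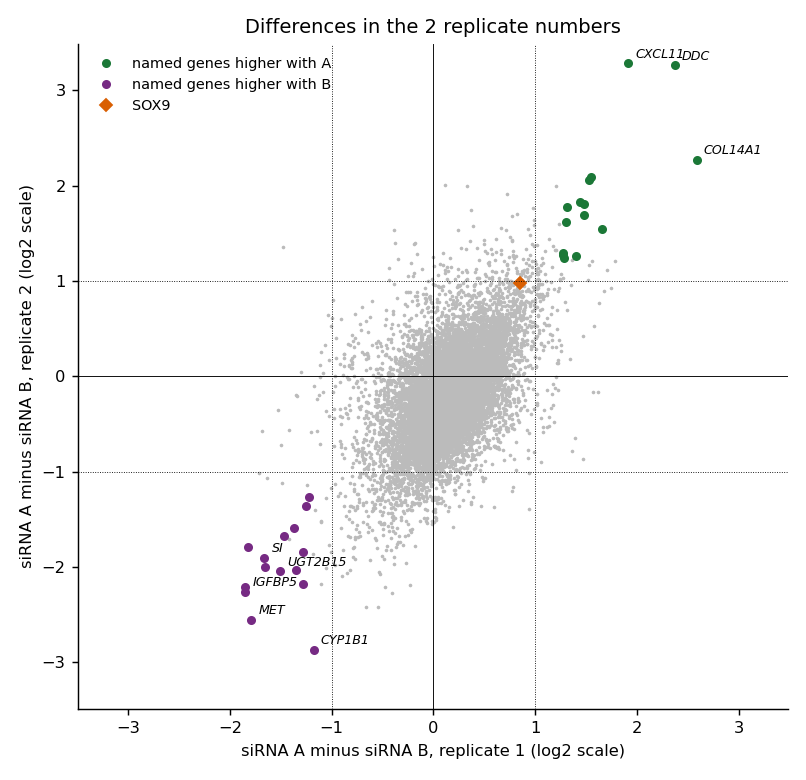
Difference siRNA A minus siRNA B of each tested gene in replicate 1 (horizontal) and replicate 2 (vertical), log2 scale, with dotted lines at 2-fold. The named genes, coloured by direction, were chosen for differing in both replicates and lie in the outer corners; SOX9, at 0.85 and 0.98, lies near the 2-fold lines.

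Where the controls stood differed between the directions of the fold rule. Of the 49 genes higher with siRNA A, 46 had both siRNA B arrays below both control arrays, as had 26.3% of all tested genes, and 17 had both siRNA A arrays above both controls, against 14.4%. Of the 30 genes higher with siRNA B, 26 had both siRNA B arrays above both controls, against 13.1%, and 18 had both siRNA A arrays below both controls, against 23.8%. Choosing genes by the difference between the siRNAs raises all of these counts, so nothing more is read from them.

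Among the genes that did not pass the test but differed by values were several signalling genes higher with siRNA A. CXCL11, an interferon-induced chemokine that binds CXCR3, read 1709.5 and 682.4 under siRNA A, 442.1 and 55.5 under siRNA B and 867.0 and 1308.6 in the controls. Both groups varied widely between replicates, with siRNA B the lower in each (difference 2.60, SE 0.60, limma adjusted p = 0.155). DUSP4, a phosphatase that switches off MAP kinases, read 394.3 and 146.6 under siRNA A and 114.4 and 39.5 under siRNA B (1.60, limma adjusted p = 0.201), and its other probe sets gave 1.38 and 1.94. EPHA8, an ephrin receptor, was at 84.9 and 64.7 against 18.4 and 2.9 (1.82, limma adjusted p = 0.0657), while a dim second probe set was mixed. ITPR1, a calcium channel of the endoplasmic reticulum, had 1487.5 and 852.9 against 605.8 and 344.5 (1.27, limma adjusted p = 0.201). With the replicate block CXCL11, DUSP4, EPHA8 and ITPR1 passed (largest limma adjusted p = 0.000767), as did all genes of the fold rule, which includes them.

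The remaining named genes higher with siRNA A had differences from 1.26 to 1.59 and did not pass without the block. PEG10, a retrotransposon-derived imprinted gene, read 2723.2 and 5416.7 under siRNA A, 967.4 and 1657.9 under siRNA B and 1729.1 and 2131.2 in the controls (1.59, limma adjusted p = 0.0798). It was above the controls with siRNA A and below them with siRNA B. METTL9, a histidine methyltransferase (1.46), CHSY1, a chondroitin synthase (1.28), DR1, a repressor that binds the TATA-binding protein (1.33), and RASSF8, a Ras-association protein (1.26), completed the set. With PEG10 they passed in the block fit (largest limma adjusted p = 0.00124), as did all genes of the fold rule, which includes them. Of the DR1 probe sets, 3 others above the filter were higher with siRNA A in both replicates and 3 were mixed. NPY, the neuropeptide Y gene, was outside the rule for named genes and is given because of its brightness, chosen after its values were seen: 6291.9 and 11396.1 under siRNA A, 1817.4 and 4912.3 under siRNA B and 1857.2 and 3131.9 in the controls (1.78 in replicate 1 and 1.21 in replicate 2, limma adjusted p = 0.188, and 3.45e-09 in the block fit).

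Named genes higher with siRNA B that did not pass included SI, sucrase-isomaltase, a disaccharidase. It read 425.3 and 848.8 under siRNA A, 1379.4 and 3217.6 under siRNA B and 272.6 and 425.6 in the controls (-1.78, SE 0.40, limma adjusted p = 0.140). GLIS3, a zinc finger transcription factor, was near the floor with siRNA A at 2.1 and 10.9 and read 47.9 and 77.2 with siRNA B (-1.81, limma adjusted p = 0.0574). SSPN, a membrane protein of the dystrophin complex, was at 49.5 and 45.1 under siRNA A, 140.3 and 140.8 under siRNA B and 89.7 and 97.3 in the controls, so the controls lay between (-1.31, limma adjusted p = 0.0798). LGALS3, the lectin galectin-3, had -1.25, ZDHHC14, a palmitoyltransferase, -1.58, and the antisense RNA ALOX12-AS1 -1.83. SI, GLIS3, SSPN, LGALS3, ZDHHC14 and ALOX12-AS1 passed in the block fit (largest limma adjusted p = 0.000767), as did all genes of the fold rule, which includes them. Whether the probe set of ALOX12-AS1 also detects the gene it overlaps was not tested.

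LUM and COL1A1, extracellular matrix genes that are markers of fibroblasts, were also higher with siRNA B by value. LUM read 261.6 and 661.7 under siRNA A, 702.1 and 2018.8 under siRNA B and 155.0 and 385.4 in the controls (-1.48, limma adjusted p = 0.336, and 5.79e-05 in the block fit). For COL1A1 the signals were 82.5 and 30.9, 222.9 and 195.7, and 135.4 and 115.0 (-1.73, limma adjusted p = 0.0574, and 1.66e-07 in the block fit), and its other probe set above the filter went the other way (0.37). Of the 13 fibroblast markers measured 5 were tested, with a median difference of 0.15. Of these 5, 2 were higher with siRNA B in both replicates, LUM and COL1A1, and 2 with siRNA A, ACTA2 and TAGLN. Over all tested genes the shares were 25.2% and 26.3%. The summed signal of all 13 was 606 and 885 under siRNA A, 1147 and 2407 under siRNA B and 574 and 730 in the controls. LUM was between 155.0 and 2018.8 of that sum, and COL1A2 and COL3A1, defining fibroblast collagens, stayed between 1.7 and 16.6 in all 6 arrays.

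The other probe sets of the named genes were mostly on the same side. Above the filter, 14 of 20 other probe sets of the genes higher with siRNA A were higher in both replicates, 5 were mixed and 1 was opposite. For the genes higher with siRNA B it was 11 of 12, with 1 opposite. Among all other probe sets of tested genes above the filter, 47.8% were mixed. The named genes were chosen for the same direction in both replicates, and their other probe sets read the same RNA on the same arrays. The lower share of mixed probe sets therefore follows from the choice and is no independent check.

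Several androgen-repressed genes were higher with siRNA B. Of 15 tested members 8 were higher with siRNA B in both replicates and 3 higher with siRNA A, where 25.2% and 26.3% of all tested genes were. MET, UGT2B15 and UGT2B28 were called higher with siRNA B and DDC higher with siRNA A. The list median was -0.42, against -0.03 over all genes, with 8 members higher with siRNA B after median centring and 11 after quantile normalization or with a common trimmed mean. Under these scalings the share of all tested genes higher with siRNA B also rose above 25.2%, as given with the cholesterol genes below. With the replicate block SI, UGT2B17, CLU and LUM passed too (largest limma adjusted p = 5.79e-05). CLU, the secreted chaperone clusterin, read 935.0 and 696.6 under siRNA A, 1838.3 and 2785.3 under siRNA B and 1295.9 and 959.4 in the controls (-1.47, limma adjusted p = 0.0798).

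**Figure D3:**
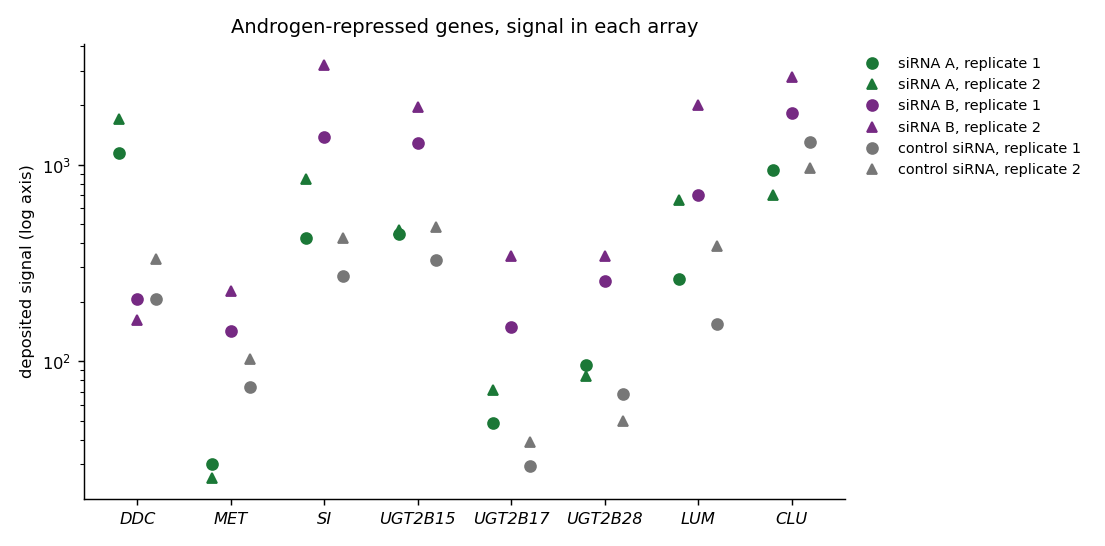
Deposited signal of 8 of the 15 tested androgen-repressed genes in each array on a log axis, with circles for replicate 1 and triangles for replicate 2. The 8 are those that passed in the block fit, so they differ by choice, and the other tested members are not shown. DDC is highest with siRNA A, and the other 7 have both siRNA B arrays above both siRNA A arrays; levels are not comparable between genes.

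Among these androgen-repressed genes were UGT2B15, UGT2B17 and UGT2B28 of the UGT2B family, glucuronosyltransferases that attach glucuronic acid to androgens and so clear them. UGT2B15 read 442.3 and 464.4 under siRNA A, 1288.9 and 1967.7 under siRNA B and 329.2 and 480.7 in the controls, so siRNA A overlapped the controls and siRNA B stood apart. Its difference was -1.78 (SE 0.31, limma adjusted p = 0.0390). UGT2B28 had 96.4 and 84.8, 256.3 and 344.7, and 68.1 and 50 in the same order (-1.56, SE 0.28, limma adjusted p = 0.0464). UGT2B17 was at 48.6 and 71.9, 148.9 and 343.0, and 29.3 and 38.8 (-1.69, limma adjusted p = 0.0798), and UGT2B4 at 48.4 and 47.1, 115.3 and 198.7, and 23.5 and 27.0 (-1.40, limma adjusted p = 0.107). UGT2B4 was on neither the androgen-repressed nor the steroid metabolism list and was outside the rule for named genes. It met the fold rule and passed in the block fit (limma adjusted p = 0.000281), as did all genes of that rule. The 4 genes kept the same order, siRNA B above siRNA A, under each scaling tried. They are close relatives, and the probe sets of UGT2B15 and UGT2B28 are of a type that can hybridise to several members, so they are not independent readings.

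Of 14 tested steroid metabolism genes, 9 were higher with siRNA B in both replicates and 2 with siRNA A (25.2% and 26.3% of all). Included were UGT2B15, UGT2B17 and UGT2B28, and the called genes were UGT2B15 and UGT2B28 (0.0965% of all tested genes were called). The sulfotransferase SULT2B1 stood at -0.98 (limma adjusted p = 0.354). Of 24 androgen-activated genes tested, 12 were higher with siRNA A in both replicates and 4 with siRNA B (26.3% and 25.2% of all). Their median was 0.10, and 0 were called in limma, with 3 at an unadjusted p below 0.05 (8.23% of all tested genes). ABCC4, an efflux pump, read 1628.4 and 1081.2 under siRNA A, 707.1 and 567.2 under siRNA B and 1488.5 and 1368.8 in the controls (1.05, limma adjusted p = 0.213; 0.00926 with the replicate block). TRPM8, a cold-sensing channel, gave 0.74 (limma adjusted p = 0.201; 0.0164 with the replicate block).

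Genes of DNA replication and the G1/S step lay towards siRNA A as a group, by value. Of 40 tested, 36 were higher with siRNA A in both replicates and 1 with siRNA B (26.3% and 25.2% of all tested genes). The list median was 0.53, at 0.69 in replicate 1 and 0.42 in replicate 2. In limma 0 were called, 18 had an unadjusted p below 0.05 (8.23% of all tested genes did), and 4 passed with the replicate block (2.90% of all). TYMS, the thymidylate synthase that makes the thymidine precursor of DNA, read 3233.0 and 4291.5 under siRNA A, 1401.4 and 1698.3 under siRNA B and 2327.1 and 2986.3 in the controls. The controls lay between the siRNAs (difference 1.26, SE 0.25, limma adjusted p = 0.0672; 3.93e-05 with the replicate block). All 6 subunits of the MCM2 to MCM7 helicase, which unwinds DNA at replication forks, were higher with siRNA A in both replicates, by 0.43 for MCM6 to 1.05 for MCM3. MCM3 had 834.6 and 803.8 under siRNA A, 401.0 and 374.0 under siRNA B and 570.9 and 926.3 in the controls, and MCM2, MCM3 and MCM5 passed in the block fit (limma adjusted p = 0.0191, 0.0131 and 0.0236).

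Mitosis and G2/M genes also lay towards siRNA A by value. Of 39 tested, 35 were higher with siRNA A in both replicates and 0 with siRNA B (26.3% and 25.2% of all tested genes). The list median was 0.47, at 0.62 in replicate 1 and 0.37 in replicate 2. In limma 0 were called, with 13 at an unadjusted p below 0.05, against the same 8.23% of all genes. MKI67, the proliferation antigen Ki-67, read 167.5 and 255.7 under siRNA A, 78.0 and 112.0 under siRNA B and 158.8 and 170.7 in the controls (1.03, limma adjusted p = 0.236). KIF23, a kinesin of the cleavage furrow, gave 0.90 (limma adjusted p = 0.307), and TOP2A, the topoisomerase that untangles chromosomes, 0.72 (limma adjusted p = 0.256). MKI67, KIF23 and TOP2A passed in the block fit (limma adjusted p = 0.0100, 0.0440 and 0.0494), as did 2.90% of all tested genes. FOXM1, the transcription factor of the mitotic programme, did not (0.87, limma adjusted p = 0.0651). In bulk RNA fewer cycling cells and less RNA of these genes per cell cannot be told apart.

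Under the scalings 38 of 40 replication genes and 36 or 37 of 39 mitosis genes were higher with siRNA A in both replicates, where 32.6% to 32.9% of all tested genes were. The level against control was not the same in the 2 lists. The median replication gene stood at 0.16 and 0.11 against the control mean under siRNA A and at -0.52 and -0.43 under siRNA B, while the control arrays themselves stood at -0.22 and 0.22. For mitosis genes the medians were 0.17 and 0.53 under siRNA A, and -0.44 and 0.20 under siRNA B, so replicate 2 of siRNA B was at the level of replicate 1 of siRNA A.

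**Figure D4:**
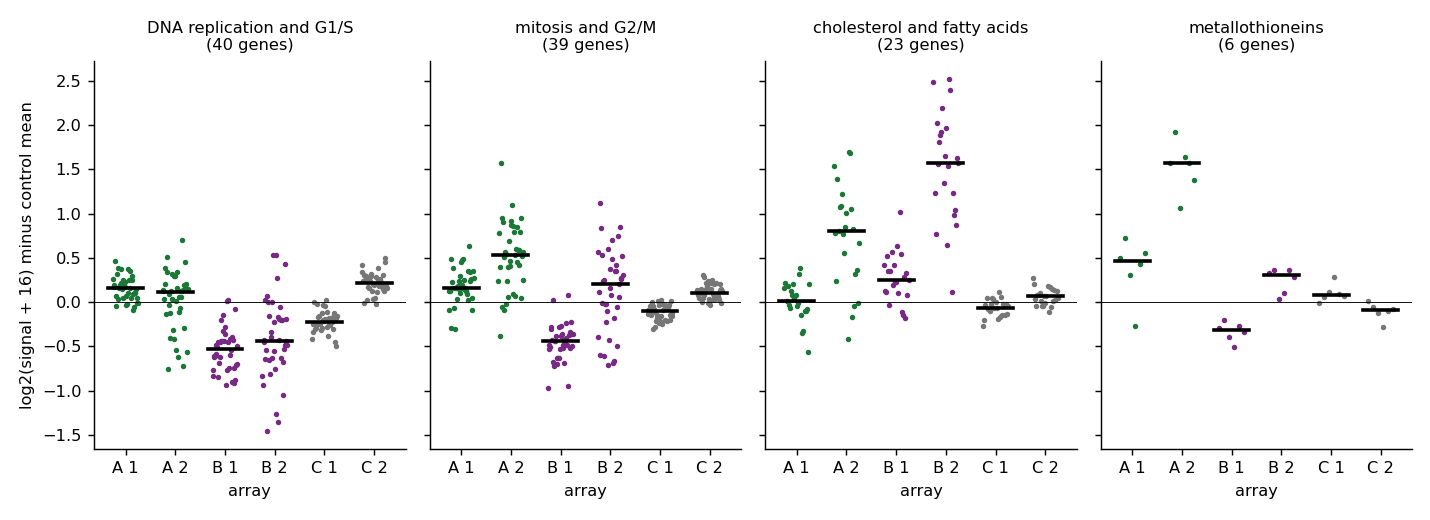
Members of 4 gene groups in each array, as log2(signal + 16) minus the gene's mean over the control arrays, with 1 dot per gene and a bar at the median; A, B and C are siRNA A, siRNA B and control. Replication genes are lowest in both siRNA B arrays; lipid genes are higher in replicate 2 than in replicate 1 of each siRNA, and metallothioneins are highest in replicate 2 of siRNA A.

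Promoters of these lists are shown because the members lay on 1 side together and because their known motifs differ. E2F factors bind near G1/S genes and the MuvB complex binds a CHR element, often beside a CCAAT box, near mitosis genes. In RefSeq windows of GRCh38.p14 the E2F motif (TTCCCGC or TTGGCGC, both strands) was in 23 of 35 replication promoters (65.7%) and 5 of 32 mitosis promoters (15.6%), against 14.7% of tested genes and 9.33% of all promoters. The CHR (TTTGAA, both strands) was in 21 of 32 mitosis promoters (65.6%) and 1 of 35 replication promoters (2.86%), against 9.63% of tested genes and 15.4% of all promoters. CCAAT, on both strands, was in 26 of 32 (81.2%), 17 of 35 (48.6%), 36.9% and 35.7%. These shares describe the lists as chosen and say nothing about binding in these cells. In the sequences, capitals mark E2F matches in MCM3 (chr6:52284693-52284992, minus strand) and TYMS (chr18:657403-657702, plus strand), and CHR and CCAAT matches in KIF23 (chr15:69414099-69414398, plus strand) and KIF11, the spindle kinesin (chr10:92592880-92593179, plus strand).
MCM3: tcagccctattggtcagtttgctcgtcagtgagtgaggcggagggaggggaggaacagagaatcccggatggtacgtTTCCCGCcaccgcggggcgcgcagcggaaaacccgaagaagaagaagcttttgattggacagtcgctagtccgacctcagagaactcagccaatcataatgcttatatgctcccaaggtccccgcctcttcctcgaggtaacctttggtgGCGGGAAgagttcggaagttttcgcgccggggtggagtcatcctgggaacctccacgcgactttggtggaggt
TYMS: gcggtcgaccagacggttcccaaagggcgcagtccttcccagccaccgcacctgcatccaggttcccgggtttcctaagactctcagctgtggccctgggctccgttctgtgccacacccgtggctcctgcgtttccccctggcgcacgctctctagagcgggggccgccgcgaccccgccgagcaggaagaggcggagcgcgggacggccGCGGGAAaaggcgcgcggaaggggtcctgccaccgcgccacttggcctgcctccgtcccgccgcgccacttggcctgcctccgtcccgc
KIF23: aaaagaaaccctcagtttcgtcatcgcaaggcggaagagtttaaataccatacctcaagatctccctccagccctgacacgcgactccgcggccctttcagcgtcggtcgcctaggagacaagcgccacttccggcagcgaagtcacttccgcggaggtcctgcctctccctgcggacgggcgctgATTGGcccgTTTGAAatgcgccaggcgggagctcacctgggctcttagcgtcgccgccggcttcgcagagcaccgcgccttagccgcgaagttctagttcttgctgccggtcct
KIF11: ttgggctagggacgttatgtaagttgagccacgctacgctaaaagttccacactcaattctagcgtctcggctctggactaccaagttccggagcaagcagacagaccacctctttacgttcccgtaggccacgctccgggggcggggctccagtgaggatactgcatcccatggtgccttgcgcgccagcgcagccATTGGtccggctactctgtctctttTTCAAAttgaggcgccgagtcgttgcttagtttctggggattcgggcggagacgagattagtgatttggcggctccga
MCM3 holds 2 matches, 1 per strand, and TYMS 1. KIF23 and KIF11 hold 1 CHR and 1 CCAAT match each, and KIF11 differed between the siRNAs by 0.77 (limma adjusted p = 0.409).

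Cholesterol and fatty acid synthesis genes lay the other way by value. Of 23 tested, 19 were higher with siRNA B in both replicates and 1, INSIG1, with siRNA A (25.2% and 26.3% of all tested genes). The median was -0.51, at -0.26 in replicate 1 and -0.80 in replicate 2. The counts were 22 after quantile normalization or with a common trimmed mean and 20 after median centring, where 29.1% to 36.9% of all tested genes were higher with siRNA B in both replicates. SREBF1, the gene of the transcription factors SREBP-1a and SREBP-1c, read 125.1 and 308.7 under siRNA A, 211.7 and 808.5 under siRNA B and 123.4 and 159.7 in the controls (-1.02, limma adjusted p = 0.601). ELOVL6, a fatty acid elongase, read 349.7 and 519.7, 554.3 and 1649.4, and 476.6 and 574.5 (-1.14, limma adjusted p = 0.372), and TM7SF2, a sterol reductase, gave -0.85 (limma adjusted p = 0.210). In limma 0 were called, with 5 at an unadjusted p below 0.05 (8.23% of all genes). SREBF1, ELOVL6 and TM7SF2 passed in the block fit (limma adjusted p = 0.0126, 0.00555 and 0.0154), as did 2.90% of all tested genes. Against control the list median was 0.02 and 0.80 under siRNA A and 0.25 and 1.57 under siRNA B, so the replicate 2 array of each siRNA was above its replicate 1 array, and siRNA B was above siRNA A in both replicates.

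Metallothioneins, small cysteine-rich proteins that bind zinc and copper, were higher with siRNA A in 6 of 6 tested genes in both replicates (26.3% of all tested genes). Their median was 0.97. They were grouped after their values were seen. MT2A read 3639.3 and 6467.6 under siRNA A, 1965.9 and 3028.7 under siRNA B and 2610.4 and 2354.0 in the controls (0.99, limma adjusted p = 0.236), and MT1F gave 1.24 (limma adjusted p = 0.239). In limma 0 were called, 5 had an unadjusted p below 0.05 (8.23% of all genes), and 5 of 6 passed with the replicate block (2.90% of all genes), all but MT1G (limma adjusted p = 0.0671). These genes are near-identical copies, so the 6 are not separate measurements.

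The series title names the WNT pathway, whose ligands and receptors were divided. Of 16 tested, 10 were higher with siRNA A in both replicates and 4 with siRNA B (26.3% and 25.2% of all tested genes). The median was 0.30, but -0.02 without the filter on dim genes. In limma 0 were called, with 4 at an unadjusted p below 0.05 (8.23% of all tested genes). WNT2, a ligand, read 486.3 and 282.4 under siRNA A, 223.0 and 148.4 under siRNA B and 370.2 and 473.0 in the controls (0.97, limma adjusted p = 0.336; 0.0232 with the replicate block). The Frizzled receptors FZD4 (0.86) and FZD10 (0.74) were higher with siRNA A and FZD2 (-0.77) higher with siRNA B, by values that did not pass. WNT targets were even, 5 and 4 of 15 against the same shares of all genes, with a median of 0.01. MYC read 6145.7 and 5195.0 under siRNA A and 4799.7 and 1932.9 under siRNA B (0.89, limma adjusted p = 0.347; 0.00156 with the replicate block), and BAMBI, a decoy receptor of the TGF-beta family, went the other way (-0.87, limma adjusted p = 0.280; 0.0425 with the replicate block).

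The lists of small RNA silencing, of interferon and RNA sensing and of antigen presentation held 0 called genes in limma. At an unadjusted p below 0.05 they held 1, 1 and 3 (8.23% of all tested genes). Of 21 tested genes of small RNA silencing, 4 were higher with siRNA A in both replicates and 5 with siRNA B. Over all tested genes these shares were 26.3% and 25.2%. DICER1, the ribonuclease that makes small RNAs, read 665.0 and 1131.6 under siRNA A, 274.4 and 588.5 under siRNA B and 558.4 and 489.1 in the controls (1.08, limma adjusted p = 0.336; 0.0104 with the replicate block). Interferon and RNA sensing genes were 3 and 11 of 22, with a median of -0.27 that was -0.0030 in replicate 1 and -0.47 in replicate 2, and IFIT1, an interferon-induced RNA binder, stood at -0.54 (limma adjusted p = 0.750). Antigen presentation genes were 4 and 8 of 15 with a median of -0.31, and HLA-F stood at -0.69 (limma adjusted p = 0.582).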

How the data were processed

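The authors deposited 1 array intensity per probe set on a linear scale for 6 arrays (Affymetrix U133 Plus 2.0), made with MAS5 per the submitters' processing notes; neither version nor scaling target is given in the sources used here. Per the labels' protocols, cRNA came from 6 ug of total RNA. Of 54675 probe sets, 62 controls were left out, 41091 had 1 gene symbol, 1801 several and 11721 none in the annotation table; 41037 matched a RefSeq gene. A gene took its brightest probe set, and a gene was tested where its mean reached the median over probe sets (5.25, a signal of 22.0), which kept 12431 and removed 7344. A gene high in 1 group could pass through that group alone, so counts cover the tested members and not all. The alternatives were other offsets, scalings, filters, probe set rules and eBayes settings, left-out arrays and the replicate block.

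Tests used limma 3.58.1 in R 4.3.3: lmFit on 3 groups over 6 arrays, 3 residual degrees of freedom, eBayes with an intensity trend, Benjamini-Hochberg over all tested genes. The script was tested on simulated data. Named genes were SOX9, up to 15 per direction (called genes first, then filled by the smaller of the 2 within-replicate differences among non-overlapping genes), and up to 4 members per list. The 37 lists held 897 symbols, of which 894 matched 871 genes, 802 measured and 652 tested. The comparison, members and lists were chosen with earlier results of these data known.

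The labels do not say that a replicate number marks a shared culture. Deviations of same-numbered arrays correlated at 0.63 between the siRNAs and at 0.18 between each siRNA and control, so the numbers were taken, from the data, to pair the arrays; with 2 numbers this is weak, and the calls of the block fit were known when it was decided. The block fit has 2 residual degrees of freedom. Promoters were RefSeq's (GRCh38.p14), 1 window per gene; 21 of 31 named genes had one.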

Additional observations from a re-analysis of the deposited data

How the results depend on the processing

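Of the 31 named genes 30 kept their direction under every alternative that tested them; SPCS3 turned to -0.27 with the median over probe sets. FGFR1 turned to 0.26 under that setting. Leaving out arrays in turn gave -0.53 to 0.90 for INSIG1 and -0.065 to 1.85 for MT1H. The count of 12 called genes (6 higher with siRNA A, 6 with siRNA B) was 0 (0 and 0) after quantile normalization, median centring, a common trimmed mean and without the filter (limma, 1516, 1300, 1480 and 1371 genes with unadjusted p under 0.05). It was 4 (2 and 2) with the median over probe sets, 6 (3 and 3) without the trend, 25 (13 and 12) with robust eBayes, 57 (21 and 36) with only the 4 SOX9 siRNA arrays and 28 (14 and 14) at an adjusted p below 0.1. Without each array in turn it ran from 0 to 288, with 0 to 90 higher with siRNA A and 0 to 198 higher with siRNA B; the counts of 0 had 712 and 1163 genes with unadjusted p under 0.05. With the replicate block it was 361 (188 and 173), with the block and median centring 588 (353 and 235), and with the block on only 4 arrays 158 (67 and 91). SOX9 passed with the replicate block (0.91) and with block and centring (0.94), and not with the block on 4 arrays (limma adjusted p = 0.341).

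The 79 genes of the 2-fold rule (49 and 30) became 35 (23 and 12) with an offset of 64, 44 (28 and 16) with the median over probe sets, 120 (76 higher with siRNA A) with all probe sets, 522 (356 and 166) at 1.5-fold and 9 (3 and 6) at 3-fold. In single replicates, an alternative chosen after seeing the data like the list counts under other settings, they ran from 204 to 739 (149 to 181 higher with siRNA A, 55 to 558 with siRNA B). The causes were not tested. The 2 arrays per group limit the precision of all values.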

Other observations

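Other values that did not pass the test without the replicate block stood outside the groups above. CENPM, a centromere protein, read 323.7 and 392.3 under siRNA A, 131.9 and 86.3 under siRNA B and 282.5 and 395.9 in the controls (1.60, limma adjusted p = 0.0574, and 2.79e-06 in the block fit); it was chosen after its values were seen. The cell cycle inhibitor CDKN1A read 426.2 and 452.5 under siRNA A, 246.9 and 228.7 under siRNA B and 329.2 and 329.8 in the controls (0.84, limma adjusted p = 0.311), the same direction as the replication genes. ELK3, an ETS factor, read 460.1 and 265.6 under siRNA A, 184.9 and 122.6 under siRNA B and 394.8 and 557.2 in the controls (1.13, limma adjusted p = 0.243; 0.00459 with the replicate block).

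Receptor and matrix genes known from cartilage went both ways. By their brightest probe sets FGFR1 (-1.05) and FGFR3 (-0.91), receptors of fibroblast growth factors, were higher with siRNA B, and COL9A3, a cartilage collagen, was higher with siRNA A (1.03); with the replicate block the limma adjusted p was 0.00742, 0.0309 and 0.0242. KRT14, a basal keratin, read 45.3 and 51.5 under siRNA A, 10.3 and 20.2 under siRNA B and 22.1 and 27.3 in the controls (1.06, limma adjusted p = 0.256, and 0.0411 in the block fit). DST, a brighter basal marker, read 1819.3 and 1537.7 under siRNA A and 1826.8 and 2155.8 under siRNA B. It was almost level in replicate 1 (-0.0059) and higher with siRNA B in replicate 2 (-0.48). Its other probe sets above the filter were divided between higher with siRNA B, higher with siRNA A and mixed. Of 4 basal markers tested, 1 was higher with siRNA A in both replicates and 1, DST, with siRNA B (26.3% and 25.2% of all tested genes). Their median was -0.08. FGFR1 is uncertain, since its other probe sets above the filter were divided. In both replicates some were higher with siRNA B (-0.44 and -0.20) and another with siRNA A (0.36). A further 2 were mixed, and the median over probe sets gave 0.26. Ribosomal protein genes were higher with siRNA A in both replicates in 26 of 41 (26.3% of all tested genes), with a median of 0.06. The count was 20 after quantile normalization and 3 with a common trimmed mean. Under these scalings the share of all tested genes rose above 26.3%, as given with the replication genes, so the ribosomal count depended on scaling.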
